A study of Mus musculus with 6 samples.

Results

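Genes for the oxidation of fatty acids in mitochondria and peroxisomes were compared in brown adipose tissue (BAT) between WT mice and mice without the microRNA miR-22. The genes were 43 listed symbols of 23462 genes that the array probes could be matched to. They were measured by 64 of 56605 probes. BAT was taken from 3 WT and 3 miR-22 KO mice, all male and 8 weeks old, and no treatment is stated for either group. The KO is global, so the deletion was carried by every cell type of the depot and not by brown adipocytes alone. Each mouse was measured on 1 single-dye Agilent array, and all arrays lay on 1 slide. The mice of each group are given below in the order of their labels, as WT mice 1 to 3 and KO mice 1 to 3. The comparison asks how the loss of miR-22 goes with expression of the fuel-burning genes of BAT, a tissue the study examined for its production of heat.

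BAT burns fatty acids released from its own lipid droplets and taken up from blood, and the electrons gained feed the respiratory chain that uncoupling protein runs without making ATP. A fatty acid is first joined to coenzyme A, then passed into mitochondria as an ester of carnitine, and then shortened in rounds of 4 reactions, which are a dehydrogenation, a hydration, another dehydrogenation and a thiolysis. Peroxisomes run a parallel spiral for very long and branched chains, with oxidases that hand electrons to oxygen in the place of the first dehydrogenases. The products of the rounds are acetyl-CoA, for the citric acid cycle, and reduced carriers, and the electrons of the first dehydrogenases pass through the electron transfer flavoprotein.

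The deleted microRNA gives a pair of mature strands, shown here because they are what the KO mice lack by their labels. Both lie on chromosome 11 (RefSeq, GRCm38.p6, plus strand), at chr11:75463772-75463793 for the 3p strand and chr11:75463734-75463755 for the 5p strand. Capitals mark the seed, bases 2 to 8, which pairs with target transcripts.
mmu-miR-22-3p: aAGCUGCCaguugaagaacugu
mmu-miR-22-5p: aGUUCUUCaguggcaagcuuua

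The values are log2 of the background-subtracted signal of a spot over the 75th percentile of its array, so that 0 is the brightness of that percentile and 1 unit is a doubling. They compare mice for 1 gene and do not rank genes against each other. All 15 brown adipocyte marker genes were above background on all 6 arrays. All 10 endothelium genes were too, so a signal above background does not by itself identify the tissue. The scaled log2 signal of *Ucp1*, the uncoupling protein, was 5.51, 5.85 and 5.53 in WT mice and 5.10, 5.0 and 5.65 in KO mice. From 55.8 to 66.5% of spots were well above background, and the array of KO mouse 1 had the lowest share. The scanner software marked 4.87 to 5.99% of spots as outliers on WT arrays 1 and 2 and 5.25 to 6.12% on KO arrays 2 and 3, but 17.1% on the array of WT mouse 3 and 15.1% on that of KO mouse 1. The marks fell more often on bright spots. Of the 43 probes that stood for the genes, the brightest of each, 25 were marked on each of those 2 arrays, against 6 to 10 on the other arrays, and the share of 58.1% compares with 61.0 and 53.6% of the brightest decile of all genes. For this reason the main counts are given with marked spots left out and with marked spots kept.

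With marked spots left out, 28 of the 43 genes could be tested. Judged by limma at an unadjusted p below 0.05, the threshold of the study's methods, 6 were downregulated in KO mice, where 8.82% of all 14711 tested genes were. These were *Acsbg1*, *Cpt1b*, *Cpt2*, *Crat*, *Gcdh* and *Hadha*. The upregulated members were 3, *Acsbg2*, *Cpt1c* and *Acox2*, where 10.0% of all tested genes were upregulated. None passed the Benjamini-Hochberg threshold over all genes (smallest adjusted p = 0.108, limma), which 0.184% of all genes did, and the methods' t-test on the same values called 3 members in each direction without adjustment. The median log2 difference, KO minus WT, was -0.22 over the 28 members and -0.03 over all tested genes. The difference lay below 0 for 21 of the 28 members and above 0 for 7, and below 0 for 7779 of all 14711 genes. The 15 members without enough unmarked values were *Acsl5*, *Acadvl*, *Acadl*, *Acadm*, *Acad10*, *Hadhb*, *Acaa2*, *Acat1*, *Decr2*, *Ehhadh*, *Acaa1b*, *Etfa*, *Etfb*, *Etfdh* and *Acot2*.

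With marked spots kept, all 43 members were tested, and 10 were downregulated against 11.1% of all 16110 genes. The 4 added were *Acsl5*, *Acat1*, *Acaa1b* and *Acox3*. The upregulated members were the same 3, against 9.47% of all genes. Again none passed after adjustment (smallest adjusted p = 0.103, limma), where 0.472% of all genes did. The median difference was -0.29 over the members and -0.06 over all genes, and 35 of the members lay below 0, as did 9001 of all 16110 genes. For 14 members all KO values lay below all WT values, and for 3 all lay above, where the same held for 17.1 and 11.6% of all genes. With marked spots left out these numbers were 5 and 3 for the members, and 1704 and 1647 for all genes. Only genes with a value on every array could be counted in that treatment. How many those were is not given here, so the counts are not shares of the 28 members and 14711 genes tested. A fall from 14 to 5 is thus not a like-for-like comparison. In bulk tissue, fewer cells of a type and less RNA per cell cannot be told apart.

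**Figure D1:**
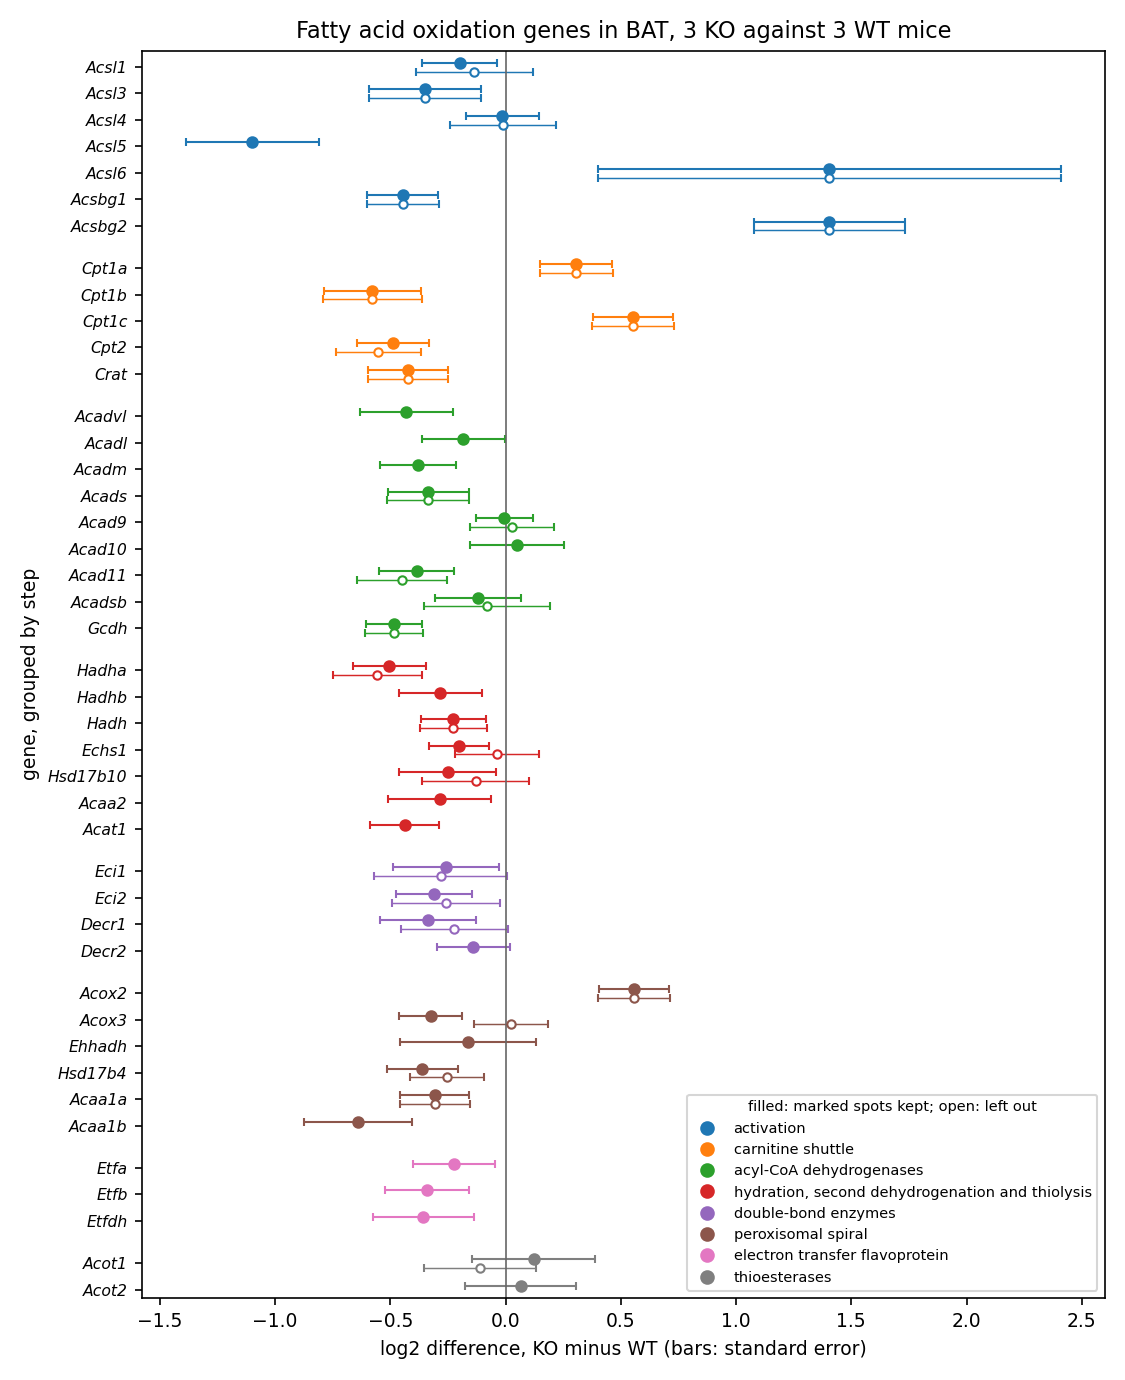
Log2 difference between 3 KO and 3 WT mice for the 43 genes, grouped by step of the pathway, with bars for the standard error from limma. Filled points have marked spots kept and open points have them left out, and 35 of the 43 filled points lie below 0. Of all 16110 genes 9001 lay below 0 with marked spots kept.

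Fatty acyl-CoA synthetases and their relatives start the pathway, and 7 were measured. *Acsl1* is the main long-chain synthetase of fat. Its scaled log2 signal with marked spots kept was 5.14, 5.28 and 5.28 in WT mice and 4.85, 4.92 and 5.32 in KO mice. KO mouse 3 was the highest of all and the groups overlapped (log2 difference -0.20 with a standard error of 0.16). With marked spots left out another probe stood for it, with -0.14. *Acsl5*, a synthetase of mitochondria and the endoplasmic reticulum, had 3.60, 3.93 and 3.75 in WT mice and 2.99, 1.99 and 3.00 in KO mice. Every KO mouse lay below every WT mouse, with KO mouse 2 lowest. The log2 difference was -1.10 (standard error 0.29, unadjusted p = 0.0068, adjusted p = 0.122, limma), the largest decrease of the 43 members. Its only probe carried 4 marked spots, so the value rests on keeping them, and without KO mouse 2 it was -0.76 (unadjusted p = 0.0031).

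*Acsbg1*, a synthetase of the bubblegum family for very long chains, had a dim probe with -2.80, -3.02 and -3.20 in WT mice and -3.42, -3.59 and -3.35 in KO mice. All KO mice lay below all WT mice (log2 difference -0.45, standard error 0.16, unadjusted p = 0.025, adjusted p = 0.21, limma). *Acsbg2*, its relative known from testis and brainstem, had -6.06, -5.36 and -5.69 in WT mice and -3.73, -4.94 and -4.22 in KO mice. The KO mice lay above all WT mice at a signal near the background, since its probe was well above background on 5 of 6 arrays. The log2 difference was 1.40 (standard error 0.33, unadjusted p = 0.0038, adjusted p = 0.108, limma), and it was 0.33 (unadjusted p = 0.16) when normexp corrected the background. *Acsl6*, a synthetase of brain and muscle, had the same difference of 1.40 with a standard error of 1.0, and its range over mice, -7.97 to -2.96, left the groups overlapping. *Acsl3* and *Acsl4* had -0.35 and -0.01, and neither passed the test. *Acsl4* had 2 further, dimmer probes with 0.63 and 0.88, so its direction depends on the probe.

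The calls of *Acsbg1* depended on single mice. It was at -0.34 without WT mouse 1 (unadjusted p = 0.089), at -0.45 without WT mouse 2 (0.053), at -0.46 without KO mouse 1 (0.052) and at -0.38 without KO mouse 2 (0.075). That of *Acsbg2* remained without each mouse in turn.

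The carnitine shuttle carries the activated fatty acid into mitochondria, and of its 5 genes 3 were downregulated and 1 upregulated in both treatments of the marked spots. Of all genes 8.82 and 11.1% were downregulated and 10.0 and 9.47% upregulated, with marked spots left out and kept. *Cpt1b* codes for the outer-membrane carnitine palmitoyltransferase of muscle and brown fat, the step at which malonyl-CoA holds back oxidation. Its scaled log2 signal was 3.40, 3.91 and 3.40 in WT mice and 2.78, 2.89 and 3.30 in KO mice, with no marked spot. The groups did not overlap, and KO mouse 3 came closest to the WT mice. The mean was 3.57 ± 0.30 (SD, n = 3) in WT and 2.99 ± 0.27 (SD, n = 3) in KO mice, and the log2 difference -0.58 (standard error 0.21, unadjusted p = 0.030, adjusted p = 0.22, limma). Over the alternatives the adjusted p lay between 0.149 and 0.688, and the difference between -0.73 and -0.36, the latter after quantile normalization.

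*Cpt1a*, the liver isoform of the same enzyme, did not fall with it. The values were -0.27, -0.08 and -0.27 in WT mice and -0.12, 0.30 and 0.12 in KO mice, with an overlap of KO mouse 1 and a log2 difference of 0.31 (unadjusted p = 0.095). *Cpt1c*, the isoform known from neurons, had a dim probe with -3.19, -3.08 and -2.75 in WT mice and -2.67, -2.31 and -2.39 in KO mice. Each KO mouse was higher than each WT mouse (log2 difference 0.55, standard error 0.18, unadjusted p = 0.017, adjusted p = 0.18, limma). Its second probe, dimmer still, gave 0.15, and the mean of both gave 0.35 (unadjusted p = 0.089).

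*Cpt2*, the inner-membrane transferase that hands the acyl group back to coenzyme A, had 4.13, 4.37 and 4.06 in WT mice and 3.57, 3.61 and 3.91 in KO mice. The groups did not overlap, and KO mouse 3 was again the nearest to WT. The spot of WT mouse 3 was marked. Without it the log2 difference was -0.55 (standard error 0.18, unadjusted p = 0.024, adjusted p = 0.20, limma), and with it -0.49. A second, dimmer probe had -0.51. *Crat*, carnitine acetyltransferase, which exports surplus acetyl groups, had 4.22, 4.46 and 4.28 in WT mice and 3.68, 3.81 and 4.19 in KO mice. The groups were separated by the gap between KO mouse 3 and WT mouse 1 alone, and the log2 difference was -0.42 (standard error 0.17, unadjusted p = 0.046, adjusted p = 0.26, limma). Its second, dimmer probe gave -0.07, and the mean of both gave -0.25 (unadjusted p = 0.22). *Slc25a20*, the carnitine-acylcarnitine carrier between these enzymes, was not among the 43 genes. It had 3.89, 3.68 and 3.77 in WT mice and 3.55, 3.39 and 3.89 in KO mice, so that the groups overlapped (log2 difference -0.17 with marked spots kept and -0.15 without them).

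The calls in the shuttle depended on single mice. *Cpt1b* was at -0.41 without WT mouse 2 (unadjusted p = 0.092), at -0.47 without KO mouse 1 (0.094) and at -0.53 without KO mouse 2 (0.082). With all mice, the methods' t-test did not call *Cpt1b* either (0.068). *Cpt1c* was at 0.46 without WT mouse 1 (0.063), at 0.52 without WT mouse 2 (0.051) and at 0.48 without KO mouse 2 (0.054). *Cpt2* was at -0.49 without KO mouse 1 (0.070) and at -0.51 without KO mouse 2 (0.062). After quantile normalization with marked spots left out, *Cpt2* was at -0.28 (0.056). *Crat* lost its call without any mouse but KO mouse 3, with -0.32 (0.15) to -0.47 (0.068), and after quantile normalization, with -0.18 (0.11). The call was also lost with normexp, the authors' processed values, the methods' t-test and the muscle covariate.

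**Figure D2:**
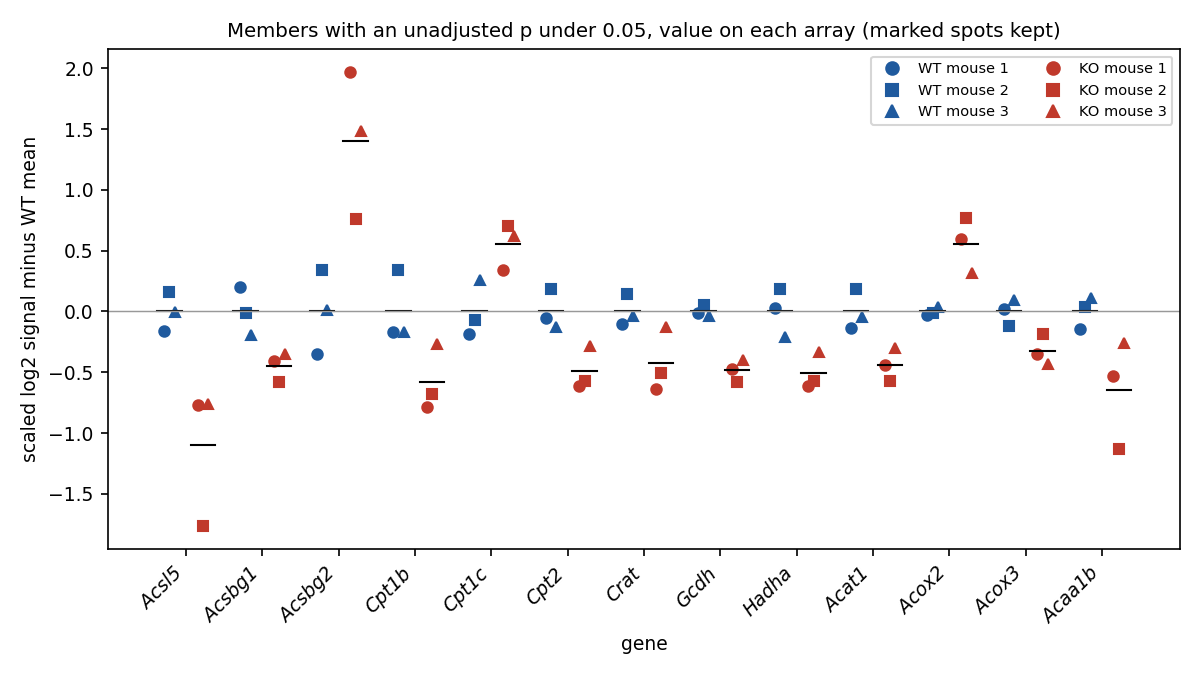
Scaled log2 signal of each mouse minus the WT mean, for the 13 members with an unadjusted p under 0.05 from limma when marked spots were kept. Blue marks are WT mice, red marks KO mice and black lines group means, and KO mouse 3 (red triangle) lies nearer to the WT mice than the other KO mice in *Cpt1b*, *Cpt2* and *Crat*, among others.

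The acyl-CoA dehydrogenases take the first electrons of each round, and 9 were measured. Only *Gcdh*, which works on glutaryl-CoA from lysine and tryptophan and not on a chain of the fatty acid rounds, was downregulated in either treatment. That was 1 of 5 tested with marked spots left out and 1 of 9 with them kept, beside 8.82 and 11.1% of all genes. The signal of *Gcdh* was 1.03, 1.09 and 1.0 in WT mice and 0.57, 0.46 and 0.64 in KO mice, with no marked spot. The 3 KO mice lay close together and well below the 3 WT mice. The means were 1.04 ± 0.046 (SD, n = 3) and 0.56 ± 0.094 (SD, n = 3), and the log2 difference was -0.48 (standard error 0.13, unadjusted p = 0.0067, adjusted p = 0.13, limma). Leaving out each mouse in turn kept it between -0.53 and -0.43, and it was past the threshold each time.

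*Acads*, the short-chain dehydrogenase, had 4.06, 4.38 and 4.09 in WT mice and 3.77, 3.64 and 4.12 in KO mice, again without a marked spot. KO mouse 3 lay among the WT mice, and the log2 difference of -0.34 (unadjusted p = 0.10) did not pass. It was -0.47 without KO mouse 3 (unadjusted p = 0.034). The very long, long and medium-chain enzymes *Acadvl*, *Acadl* and *Acadm* had 3 or 4 marked spots each and were measured only with them. Their log2 differences were -0.43 (unadjusted p = 0.070), -0.18 (0.34) and -0.38 (0.054). *Acadm* had 4.82, 4.96 and 4.84 in WT mice and 4.40, 4.29 and 4.78 in KO mice, all KO mice lower. *Acad11*, a dehydrogenase of longer chains, had -0.39 (0.052). *Acad9*, which also helps to assemble respiratory complex I, *Acad10* and *Acadsb*, the short and branched-chain enzyme, ranged from -0.12 to 0.05.

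In the next reactions of the round, hydration, the second dehydrogenation and thiolysis, 7 genes were measured and all 7 lay below 0 with marked spots kept, from -0.50 to -0.20. Of all 16110 genes 9001 did, and the 7 lay in the brightest decile, where the median of all genes was -0.29. Without the marked spots 4 of 4 tested lay below 0, beside 7779 of all 14711 genes. After quantile normalization with marked spots kept only 2 of 7 did, beside 8839 of all 16110 genes. Downregulated were 1 of 4 with marked spots left out and 2 of 7 with them kept, beside 8.82 and 11.1% of all genes. *Hadha*, the alpha subunit of the trifunctional protein, which holds the hydratase and dehydrogenase activities for long chains, had 3.30, 3.45 and 3.06 in WT mice and 2.66, 2.70 and 2.94 in KO mice. No KO value reached the WT range. The spots of WT mouse 3 and KO mouse 1 were marked, and the log2 difference was -0.56 without them (standard error 0.19, unadjusted p = 0.036, adjusted p = 0.23, limma) and -0.50 with them (unadjusted p = 0.015, adjusted p = 0.16). The first value rests on 2 mice per group. Its call was lost with the methods' t-test (unadjusted p = 0.059) and, in limma, after quantile normalization (0.051). It was also lost with the muscle covariate (0.079) and without a filter on dim probes (0.069). *Hadhb*, the beta subunit that carries the thiolase, had a difference of -0.28 (unadjusted p = 0.16), and its second probe, marked on all 6 arrays, had 0.10.

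*Acat1*, the mitochondrial acetoacetyl-CoA thiolase, had 3.45, 3.77 and 3.54 in WT mice and 3.14, 3.01 and 3.29 in KO mice, of which 3 spots were marked. All KO mice were lower (log2 difference -0.44, standard error 0.15, unadjusted p = 0.021, adjusted p = 0.18, limma). Without WT mouse 2 it was -0.35 (unadjusted p = 0.064), without KO mouse 1 -0.44 (0.055) and without KO mouse 2 -0.37 (0.065). *Hsd17b10*, a short-chain dehydrogenase of mitochondria, had 4.40, 4.82 and 4.52 in WT mice and 4.17, 4.10 and 4.72 in KO mice. KO mouse 3 lay inside the WT range, and the difference was -0.25 with marked spots kept and -0.13 without the marked spot of WT mouse 2. *Hadh*, *Echs1* and *Acaa2* had -0.23, -0.20 and -0.29 and overlapping groups. A dimmer probe of *Echs1* had 0.04.

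The enzymes that shift or reduce double bonds, which unsaturated fatty acids need, were 4, and none passed the test. *Eci1*, the mitochondrial enoyl-CoA isomerase, had 5.27, 5.74 and 5.15 in WT mice and 4.93, 4.95 and 5.50 in KO mice. KO mouse 3 lay above 2 of the WT mice. Its log2 difference was -0.26, and those of *Eci2*, *Decr1* and *Decr2* were -0.31, -0.34 and -0.14. *Etfa* and *Etfb*, the subunits of the electron transfer flavoprotein, and *Etfdh*, its dehydrogenase, were measured only with marked spots, which they had on 3 to 5 arrays. Their differences were -0.22, -0.34 and -0.36, with overlapping groups and unadjusted p values of 0.25, 0.11 and 0.15. All 5 probes of *Etfa* and *Etfb* lay below 0, from -0.36 to -0.22.

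Of the 6 genes of the peroxisomal spiral, 5 lay below 0 with marked spots kept and *Acox2* above. With marked spots left out 2 of 4 lay below 0. Of all genes 9001 of 16110 lay below 0 with marked spots kept and 7779 of 14711 with them left out. *Acox2*, the oxidase for branched chains and bile acid intermediates, had -4.17, -4.15 and -4.10 in WT mice and -3.55, -3.37 and -3.82 in KO mice. No KO value fell as low as a WT value, on a dim probe above background on all 6 arrays. The log2 difference was 0.56 (standard error 0.16, unadjusted p = 0.0090, adjusted p = 0.14, limma), 0.31 with normexp (unadjusted p = 0.077) and 0.36 after quantile normalization (0.035). Leaving out each mouse in turn kept it past the threshold. *Acox3*, another branched-chain oxidase, showed how the choice of probe enters. Its brighter probe, marked on 3 arrays, had 0.98, 0.84 and 1.06 in WT mice and 0.61, 0.78 and 0.53 in KO mice, all KO mice lower (-0.32, unadjusted p = 0.0495, adjusted p = 0.24, limma). Its unmarked, dimmer probe had 0.02.

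*Hsd17b4*, the peroxisomal D-bifunctional protein, had 3.73, 3.84 and 3.76 in WT mice and 3.20, 3.39 and 3.65 in KO mice. Each KO mouse was lower, with KO mouse 3 closest to WT, and the difference was -0.36 (unadjusted p = 0.051) with marked spots kept and -0.26 (0.17) without the marked spot of KO mouse 1. The thiolase genes *Acaa1a* and *Acaa1b* are near-identical copies whose probes may bind both transcripts, so their values are uncertain. *Acaa1a* had -0.31 (unadjusted p = 0.080). *Acaa1b* had 3.09, 3.27 and 3.35 in WT mice and 2.70, 2.10 and 2.97 in KO mice with 4 marked spots. All its KO values were lower, that of KO mouse 2 most, with -0.64 (standard error 0.23, unadjusted p = 0.029, adjusted p = 0.20, limma). *Acaa1b* was at -0.63 without WT mouse 2 (unadjusted p = 0.071), at -0.59 without WT mouse 3 (0.080) and at -0.40 without KO mouse 2 (0.056). *Ehhadh*, the L-bifunctional protein, had -0.16 with 5 marked spots.

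The thioesterases *Acot1* and *Acot2* split acyl-CoA back to the free acid, in cytosol and mitochondria, and are near-identical copies too. *Acot1* had 3.35, 3.31 and 2.70 in WT mice and 2.92, 3.09 and 3.71 in KO mice. *Acot2* had 3.94, 3.93 and 3.33 in WT mice and 3.50, 3.73 and 4.15 in KO mice. On both probes KO mouse 3 was highest and WT mouse 3 lowest, and the groups overlapped. The log2 differences with marked spots kept were 0.12 and 0.06, and that of *Acot1* was -0.11 without the marked spot of KO mouse 3.

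By compartment, with marked spots kept, 5 of 24 genes of mitochondria were downregulated and none upregulated, with a median difference of -0.28. Of 7 genes of peroxisomes, 2 were downregulated and 1 upregulated, with a median of -0.31. The 3 genes whose enzymes lie in both organelles, *Crat*, *Acad11* and *Eci2*, had a median of -0.39, and *Crat* was downregulated. The 8 genes of the endoplasmic reticulum and other membranes, the synthetases and *Cpt1c*, had 2 downregulated and 2 upregulated genes and a median of -0.11. The downregulated *Acsl5* was counted here and not under mitochondria, although its enzyme lies in both places. *Acot1* alone is cytosolic. Each share is read beside 11.1% of all genes downregulated, 9.47% upregulated and a median of -0.06. With marked spots left out, 4 of 13, 0 of 4, 1 of 3 and 1 of 7 were downregulated in the same order. Those upregulated were 0, 1, 0 and 2, and the medians were -0.23, -0.12, -0.42 and -0.01. Of all genes 8.82% were downregulated and 10.0% upregulated in that treatment, with a median of -0.03. After quantile normalization with marked spots kept, the medians were -0.01, -0.08, -0.16 and 0.10. In that setting 12 of the 24 mitochondrial genes lay below 0, beside 8839 of all 16110 genes.

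The differences of all genes followed brightness. For the members only the brightest decile and the rest are compared, since no other decile held more than 4 of them. In deciles of the 16110 genes by mean signal, a division chosen after the data were seen, the median difference with marked spots kept went from 0.19 in the second-dimmest decile to -0.29 in the brightest. In the brightest decile 17.9% of all genes were downregulated and 0.248% upregulated, and in the second-dimmest 20.2% were upregulated. Of the 43 members, 28 lay in the brightest decile. Of these, 6 (21.4%) were downregulated and none upregulated, and their median was -0.32. The 15 other members had 4 downregulated and 3 upregulated genes and a median of -0.01. In the deciles other than the brightest, from 5.46 to 19.3% of all genes were downregulated and from 1.24 to 20.2% upregulated. The upregulated *Acsbg2*, *Acox2* and *Cpt1c* lay in deciles 1, 2 and 3 from the dim end. With marked spots left out, 15 members lay in the brightest decile and 4 (26.7%) were downregulated, where 13.2% of all genes in that decile were.

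After quantile normalization, which gives every array the same distribution of signals, the slope with brightness was mostly gone. The median of the brightest decile was -0.05, and 4.72% of its genes were downregulated. The 28 bright members then had a median of -0.08 with 4 (14.3%) downregulated. Over the 43 members the median was -0.03, as over all genes, with 23 below 0 and 20 above, beside 8839 of all 16110 genes below 0. The downregulated members were then *Acsl5*, *Acsbg1*, *Cpt1b*, *Cpt2*, *Gcdh* and *Hadha*, against 10.6% of all genes, and the upregulated were *Acsbg2*, *Cpt1c* and *Acox2*, against 8.01%. *Acsl5* had -0.89 (unadjusted p = 0.017) and *Gcdh* -0.43 (0.0041) in this setting, while *Cpt1b*, *Cpt2* and *Hadha* had -0.36, -0.25 and -0.31.

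**Figure D3:**
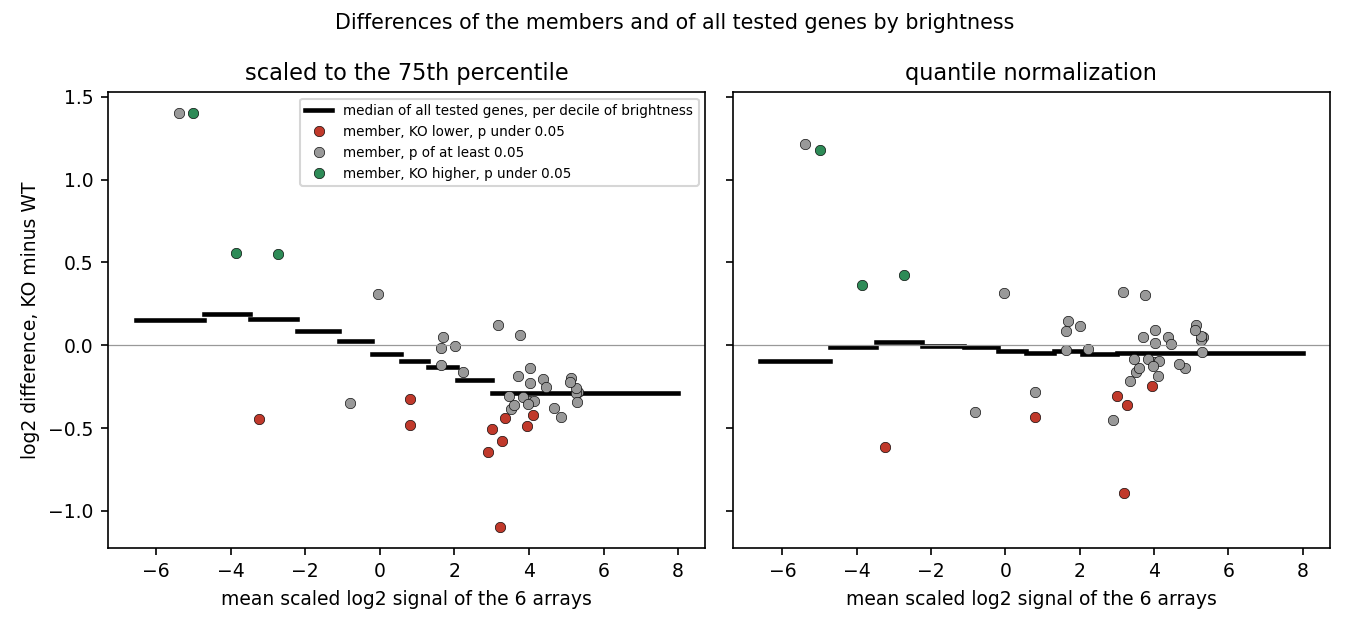
Log2 difference, KO minus WT, against mean scaled log2 signal for the 43 members (points) with marked spots kept, beside the median of all 16110 genes in each decile of brightness (black bars). The bars fall from 0.19 to -0.29 with scaling to the 75th percentile (left) and stay near 0 after quantile normalization (right), where the member median is -0.03.

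The median level of the members also varied from mouse to mouse, and whether single members varied together was not tested. The median scaled log2 signal of the 43 genes was 3.68, 3.89 and 3.60 in WT mice and 3.21, 3.20 and 3.65 in KO mice, so that KO mouse 3 lay inside the WT range. The median of the brightest decile of all genes was ordered in a like way, with 3.79, 4.05 and 3.86 in WT mice and 3.52, 3.52 and 3.84 in KO mice. The mean of 10 genes of mitochondrial content was 4.06, 4.22 and 4.15 in WT mice and 3.70, 3.76 and 4.03 in KO mice, a difference of -0.31 (two-sided exact permutation test, p = 0.1, the smallest that 3 against 3 can give, and 0.375 adjusted over 10 lists). The part of these in the results of the members was not tested. Without KO mouse 3, 21 of the 43 members were downregulated, where 13.4% of all genes were, and without KO mouse 1, 4 were, against 7.29% of all genes.

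Other cell types were followed through marker lists. The mean of 25 skeletal muscle genes was 2.04, 1.27 and -4.19 in WT mice and -0.25, 3.14 and 1.24 in KO mice, and WT mouse 3 stood far below the others (difference 1.67, exact permutation test, p = 0.7). All 25 were above background on at least 4 arrays and 15 on all 6. *Cpt1b* is also a gene of muscle, and with the muscle mean as a covariate its difference was -0.63 (unadjusted p = 0.035, adjusted p = 0.27, limma). In that fit 4 members were downregulated with marked spots left out and 7 with them kept, and 3 upregulated in both, where 7.23 and 8.14% of all genes were downregulated and 9.14 and 8.48% upregulated. The means of the brown adipocyte, all-adipocyte, white adipocyte, macrophage, endothelium, erythroid, lymphocyte and nerve lists differed by -0.29, -0.22, 0.43, 0.23, -0.02, 0.15, 0.42 and -0.26, with exact permutation p of 0.1 to 0.8, and 0.375 to 0.8 adjusted over the lists. Of the white adipocyte list 3 of 12 genes were not tested for lack of signal, as were 3 of 10 lymphocyte genes.

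**Figure D4:**
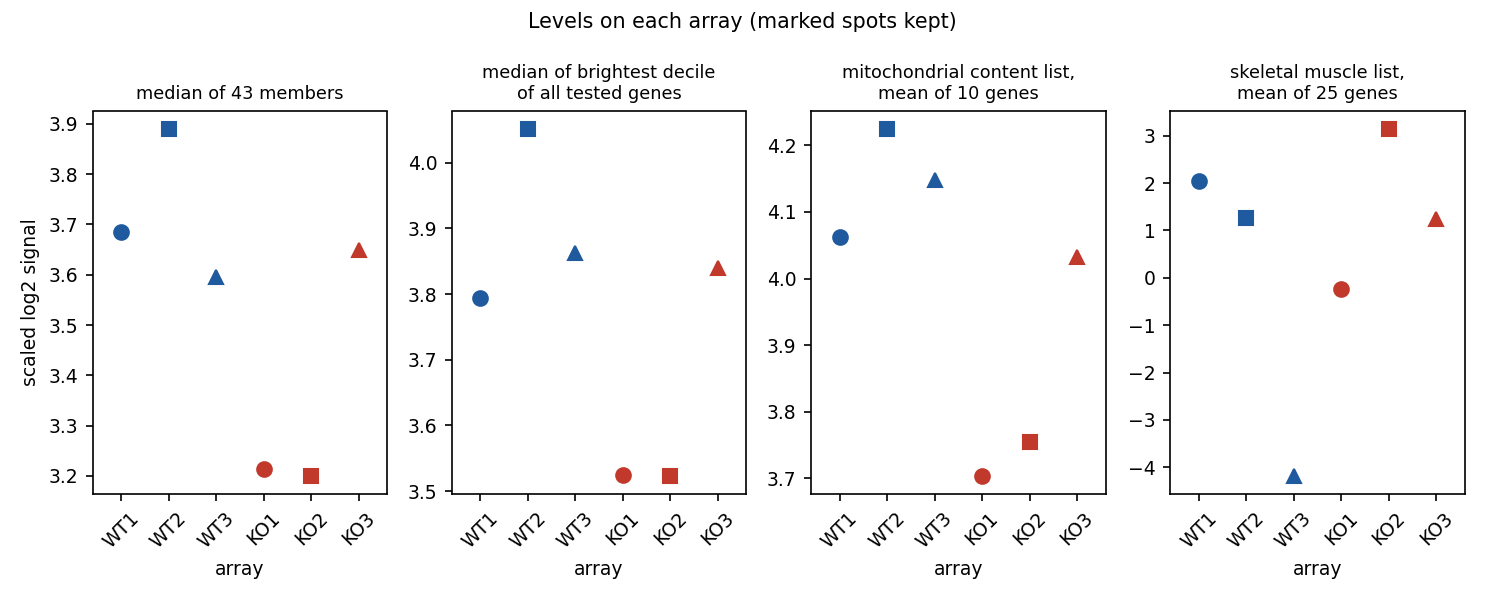
Scaled log2 signal of each array, marked spots kept, for the median of the 43 members, the median of the brightest decile of all genes, and the means of the mitochondrial content and skeletal muscle lists, each on its own axis. KO mice 1 and 2 lie lowest in the first 3 panels and KO mouse 3 lies near the WT mice, while WT mouse 3 lies lowest in the muscle panel.

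Position on the slide was shared unevenly. The row was read from a digit in the names of the scanner files, and the sample labels do not give it. By this reading, WT mice 1 and 2 lay in the first row and WT mouse 3 with all KO mice in the second. Within a row only WT mouse 3 could thus be compared with KO mice. The row was then fitted as a block. With marked spots left out, 0 of 19 members with a value for WT mouse 3 were downregulated and 2 upregulated. Of all genes 2.49% were downregulated and 6.56% upregulated there. With marked spots kept the counts were 1 and 2 of 43, beside 3.08 and 5.46% of all genes. Of *Acsbg2*, *Cpt1c* and *Acox2*, only *Acsbg2* was among the upregulated members of either treatment. The other upregulated member had no call in the fit without the block, so the block added a call as well as removing some. *Acsl5* remained at -1.09 (unadjusted p = 0.046), *Acsbg2* at 1.39 (0.030) and *Gcdh* at -0.45 (0.073). *Cpt1b* had -0.41 (0.24), *Cpt1c* 0.29 (0.26), *Crat* -0.38 (0.21), *Acsbg1* -0.25 (0.30) and *Acox2* 0.52 (0.078). With marked spots kept, *Cpt2* had -0.36 (0.18), *Hadha* -0.29 (0.23), *Acat1* -0.39 (0.15), *Acaa1b* -0.75 (0.076) and *Acox3* -0.42 (0.095).

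Other genes of lipid oxidation and its control, 48 listed beside the members, were compared in the same way. With marked spots left out 39 were tested, 6 were downregulated and 2 upregulated, beside 8.82 and 10.0% of all genes, and the median was -0.13. With them kept 47 were tested, 9 were downregulated and 1 upregulated, beside 11.1 and 9.47% of all genes, and the median was -0.19. *Acaca*, which makes the malonyl-CoA that inhibits carnitine palmitoyltransferase, had 4.39, 4.97 and 4.36 in WT mice and 3.61, 3.78 and 3.71 in KO mice. All KO mice were lower, by -0.68 without the marked spot of WT mouse 2 (standard error 0.15, unadjusted p = 0.0042, adjusted p = 0.11, limma) and by -0.88 with it. *Acacb*, the isoform at the mitochondrial surface, had 0.47 (unadjusted p = 0.026) on a dim probe and -0.32 (0.097) on a brighter probe with marked spots, so its direction depends on the probe.

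Of the regulators, *Esrra*, the estrogen-related receptor that drives oxidative genes, had 3.22, 3.53 and 3.25 in WT mice and 2.75, 2.71 and 3.07 in KO mice. The KO values lay below all WT values, by -0.53 without the marked spot of WT mouse 3 (standard error 0.20, unadjusted p = 0.036, adjusted p = 0.24, limma) and by -0.49 with it. *Ppargc1a*, its coactivator, had 3.76, 3.39 and 3.52 in WT mice and 2.95, 2.87 and 3.10 in KO mice with 4 marked spots, all KO mice lower (-0.59, standard error 0.15, unadjusted p = 0.0060, adjusted p = 0.12, limma). *Ppara*, the nuclear receptor for fatty acids, had 3.40, 3.75 and 3.40 in WT mice and 2.69, 3.28 and 3.54 in KO mice, and its groups overlapped (-0.34, unadjusted p = 0.20). The other downregulated genes were *Acot11*, a thioesterase of brown fat (-0.87), *Echdc3* (-0.42), *Ivd*, which breaks down leucine (-0.42), and *Oxct1*, which uses ketone bodies (-0.40). With marked spots kept *Acad8* (-0.49) and *Acot8* (-0.37) were added. *Acot3*, a peroxisomal thioesterase, was upregulated in both (0.54).

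Promoters were searched for the sites of these receptors because *Esrra* and its coactivator were among the downregulated genes. RefSeq promoter windows (GRCm38.p6, from 250 bases before to 50 after the start) were given for 35 of the 43 members, 39 windows in all. The core of the estrogen-related receptor site, AAGGTCA on either strand, was in 2 of these 39 (5.13%), those of *Acadm* and *Acsl6*, against 4.72% of all 32851 windows. The longer TCAAGGTCA, which contains the core, was in that of *Acsl6* alone (2.56%, against 0.423%). A direct repeat of the type peroxisome proliferator-activated receptors bind, AGGTCANAGGTCA, was in none of the 39 and in 0.0396% of all windows. A match is a description of the letters and no evidence of binding. 1 stretch of each gene is shown on the strand of the gene, with the core in capitals as its reverse complement, at chr3:153944846-153944893 (minus strand) for *Acadm* and chr11:54303617-54303703 (plus strand) for *Acsl6*. The core begins 249 bases before the start of *Acadm* and 167 before that of *Acsl6*, where another copy, 189 bases before the start, is in lower case.
Acadm: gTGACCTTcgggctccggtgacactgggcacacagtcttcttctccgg
Acsl6: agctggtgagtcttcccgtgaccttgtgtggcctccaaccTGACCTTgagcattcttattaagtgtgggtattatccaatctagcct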

How the data were processed

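BAT RNA of 3 WT mice and 3 mice without miR-22 was labelled with Cy3 and read on single-dye arrays. Per the file headers, the scanner files that the authors deposited hold intensity values from Agilent Feature Extraction (version 11.5.1.1 in the headers, 10.7 in the submitters' processing notes), after background subtraction and spatial detrending but without scaling between arrays. The authors also deposited log2 values of 27497 probes, whose processing is not given in the sources used here and whose columns share a maximum. They correlated with their own array's signal at an r of at least 0.9998 and were used as an alternative.

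The log2 signal was scaled by subtracting, on each array, the 75th percentile over its 59305 spots that were no controls. Marked spots were left out or kept. Probes had to be well above background on at least 3 arrays with 2 values per group, and the brightest probe stood for a gene, matched through its RefSeq accession. Tests used limma 3.58.1 (lmFit, eBayes, two-sided) in R 4.3.3 over all tested genes, with Benjamini-Hochberg adjustment, and were tested on simulated data. Given on every array were members with an unadjusted p under 0.05 in either treatment of marked spots, the brightest tested member of each step, and *Cpt1b*. *Cpt1a*, *Acadm* and *Acot2* were added after their values were seen. The members and lists were chosen with earlier results of these data known. The number of arrays limits the precision. 1 gene of the pathway is not reported here. SAM, the test of the paper's methods for its arrays, was not run. Alternatives were other scalings, background corrections, filters, probe rules and tests, the row of the slide, the muscle list and leaving out each mouse.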

Additional observations from a re-analysis of the deposited data

How the results depend on the processing

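No paired analysis was possible because the mouse numbers of the WT and KO groups have none in common. Downregulated members with marked spots left out, 6 of 28, were 10 of 43 with marked spots kept. They were 3 of 28 after quantile normalization, 3 of 28 with the methods' t-test and 0 of 19 with slide row as a block. Leaving out each mouse in turn gave 1 of 20 (without KO mouse 2) to 7 of 21 (without KO mouse 3). The number of testable members thus changed with the setting. Among these fits the share of all genes downregulated was also highest without KO mouse 3, and it was lowest without WT mouse 2, in both treatments of marked spots. Upregulated members, 3, were 1 with normexp background correction and 2 to 4 without each mouse. With marked spots kept, the 10 downregulated members became 6 after quantile normalization, 1 with the row as a block and 4 (without KO mouse 1), 5 (without KO mouse 2) and up to 21 (without KO mouse 3), with 2 to 4 upregulated. The median log2 difference of -0.29 in that setting moved to -0.028 after quantile normalization, and leaving out each mouse gave -0.40 to -0.22, against -0.30 to -0.11 with marked spots left out. The median of all genes moved by less than 0.1 under every scaling. The cause of these shifts was not tested.

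Of 321 values of 19 genes under the alternatives, 245 kept direction and side of the threshold, 52 kept direction but lost the call, 1 gained it and 23 turned sign. All 23 belong to genes without a call in the main setting. *Acsl1* (-0.14) was 0.14 after quantile normalization, 0.12 with marked spots kept as well and 0.13 with the authors' processed values. *Hsd17b10* (-0.13) was 0.029, 0.0072 and 0.026 in the same order, and *Eci1* (-0.28) was 0.0022 and 0.058 with quantile normalization, marked spots left out and kept. *Acox3* (0.02) was -0.32 with marked spots kept, -0.12 after quantile normalization, -0.28 with both, -0.024 with normexp, -0.12 with the processed values, -0.15 with the row as a block, -0.079 without WT mouse 1 and -0.049 without KO mouse 3, against up to 0.11 without WT mouse 3. *Acot1* (-0.11) was 0.12 with marked spots kept, on either choice of probe, 0.19 after quantile normalization, 0.32 with both, 0.014 with normexp, 0.31 with the row as a block and 0.0036 without WT mouse 1. No member passed the adjusted threshold under any alternative. With 3 arrays per group, differences within the spread between mice were not detectable, and dim probes such as that of *Acsbg2* lie close to the background.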
